A study of Homo sapiens with 12 samples.

Results

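The genes of glucose uptake, glycolysis and gluconeogenesis were examined in 12 RNA-seq libraries of human liver tumour cell lines in which CD146 had been lowered or raised. The set holds 39 genes out of the 61806 gene IDs in the count table, taken from a list of symbols matched to the Ensembl IDs, and all 39 were found. CD146 is a cell surface adhesion molecule encoded by MCAM. HepG2 and Hep3B are established human liver tumour cell lines.

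The study has 4 groups of 3 libraries. Libraries labelled Hep3B carried either a Tet-on-induced control shRNA or a Tet-on-induced shRNA against CD146, and their cells were grown in DMEM. HepG2 libraries carried either the pLVX vector or the same kind of vector with CD146, and their cells were grown in MEM with added sodium pyruvate. Both media held serum and antibiotics. The titles number the shRNA libraries sh1 to sh3, which could stand for replicates or for different hairpins. They were treated as replicates because the treatment label is the same within a group, and if they were hairpins, the spread in the knockdown would also hold differences between hairpins. Each line is 1 line, so differences between the lines cannot be told apart from differences in medium, vector or induction. Nothing in the labels says that replicates were separate cultures, so a p-value measures only how far these libraries spread, and that spread may be technical.

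Glucose enters cells through transporters of the SLC2A family and is trapped by hexokinases, after which glycolysis splits it to pyruvate. Pyruvate can be reduced to lactate and exported, or enter the mitochondrion through pyruvate dehydrogenase. Liver is known for running the reverse route, gluconeogenesis, and for its own isozymes at several steps, while fetal liver and liver tumours often use other isozymes of the same steps.

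Levels are given as deposited FPKM, a read count scaled by gene length and library size, which allow genes to be set side by side. Changes are log2 fold changes from edgeR's quasi-likelihood test on the counts, with trimmed-mean (TMM) scaling and Benjamini-Hochberg adjustment over all genes tested, and a gene is called at an adjusted p under 0.05. The depth was 12.8 to 18.1 (counts in units of 1e6) per library. A count of 3, taken as the floor of detection, was worth 0.165 to 0.235 CPM (counts scaled to a common library total), and it covers counting error only. MCAM stood at 15.7, 15.1 and 16.2 FPKM with the control shRNA and at 2.96, 3.19 and 3.55 with the CD146 shRNA. In HepG2 it stood at 2.99, 3.10 and 3.11 with pLVX and at 268, 268 and 262 with CD146. MCAM fell by 2.25 on the log2 scale (SE 0.06, adjusted p = 5.51e-29) and rose by 6.37 (SE 0.04, adjusted p = 5.55e-67).

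The hepatocyte markers went against the label Hep3B. The summed level of 10 hepatocyte markers, among them ALB, APOA1 and AFP, was 0.78 to 1.01 FPKM with the control shRNA, and 8 of the 10 were under 0.1 FPKM in all 3 libraries. In HepG2 the sum was 12520 to 12890 FPKM with pLVX and 10680 to 10860 with CD146. CD146 shRNA replicate 3 stood apart with a sum of 14.4 FPKM, against 1.16 and 1.44 in the other CD146 shRNA libraries, and with 298 counts of ALB. Other marker lists moved as well. The cholangiocyte sum was 117 to 123 FPKM with pLVX and 170 to 175 with CD146. In the knockdown that sum was 56.1 to 60.8 FPKM with the control shRNA and 48.4 to 50.1 with the CD146 shRNA. The fibroblast sum was 6.6 to 7.6 FPKM with the control shRNA and 10.6 to 13.1 with the CD146 shRNA. In HepG2 the fibroblast sums overlapped, at 1.24 to 1.42 FPKM with pLVX and 0.95 to 1.79 with CD146. Their part in the results was not tested, and in bulk RNA fewer cells of a type and less RNA per cell cannot be told apart. Without CD146 shRNA replicate 3, 7 members were called higher and 13 lower in the knockdown, against 8 and 14 with it.

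**Figure D1:**
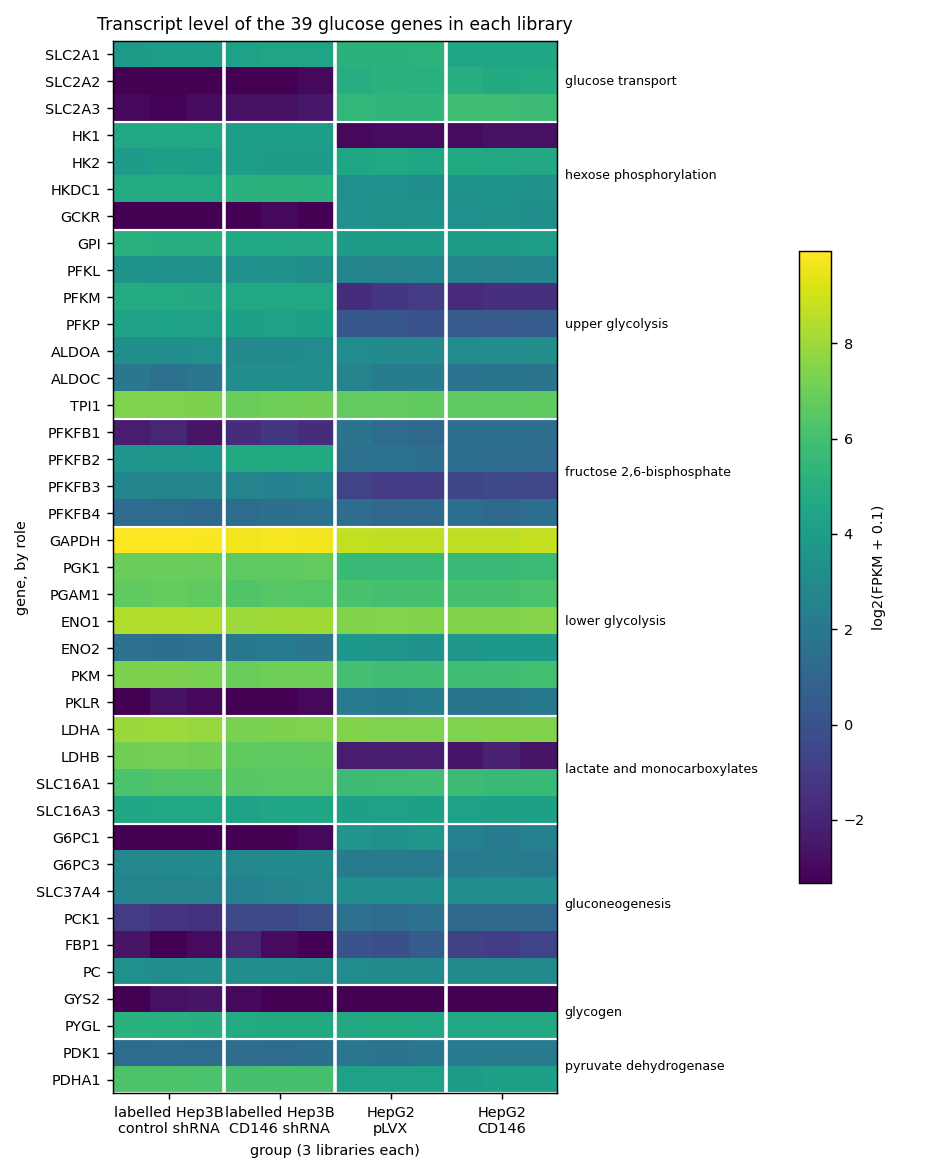
Level of each of the 39 genes (rows, ordered by role) in each of the 12 libraries (columns, 3 per group), as log2(FPKM + 0.1). SLC2A2, SLC2A3, GCKR, PKLR and G6PC1 are dark in the libraries labelled Hep3B, and HK1, PFKM and LDHB are dark in HepG2.

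The promoters of both glucose-6-phosphatases are shown first, because one gene had no counts in a control group while its relative was read in all libraries. G6PC1, the liver glucose-6-phosphatase, was counted 0 times in all 3 control shRNA libraries, while G6PC3, the broadly expressed form of the enzyme, was present in all 12 libraries. The 250 bases before each RefSeq start follow (GRCh38.p14, both on the plus strand; chr17:42900549-42900798 for G6PC1 and chr17:44070423-44070672 for G6PC3). Capitals mark CG dinucleotides, which numbered 3 for G6PC1 and 18 for G6PC3. The median over 27305 genes was 11.
G6PC1: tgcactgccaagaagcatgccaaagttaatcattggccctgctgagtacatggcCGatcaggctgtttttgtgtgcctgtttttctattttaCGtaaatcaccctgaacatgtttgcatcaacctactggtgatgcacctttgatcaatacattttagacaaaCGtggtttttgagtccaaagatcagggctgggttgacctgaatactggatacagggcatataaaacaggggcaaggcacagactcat
G6PC3: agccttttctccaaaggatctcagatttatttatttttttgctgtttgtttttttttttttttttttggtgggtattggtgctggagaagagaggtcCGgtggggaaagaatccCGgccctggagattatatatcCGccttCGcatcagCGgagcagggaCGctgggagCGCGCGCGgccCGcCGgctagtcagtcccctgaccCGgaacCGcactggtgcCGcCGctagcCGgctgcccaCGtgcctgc

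The set as a whole was spread over both directions. In the knockdown 31 of the 39 genes were tested, and 8 rose, 14 fell and 9 were not called. Over all genes tested, 26.8% were called higher and 28.5% lower, and the median log2 change was 0.00 against -0.08 for the members. With CD146 overexpression 36 were tested, and 2 rose, 13 fell and 21 were not called. Over all genes tested 9.55% were higher and 10.3% lower, and the medians were 0.00 for all genes and -0.07 for the members. With limma on the deposited FPKM, which were not TMM-scaled, 5 members were lower and 4 higher. The 5 were SLC2A1, ALDOC, G6PC1, PCK1 and FBP1. Between pLVX HepG2 and the control shRNA libraries 38 were tested, and 16 were higher in HepG2, 19 lower and 3 not called, against 42.1% higher and 43.0% lower over all genes. On deposited FPKM the median of all genes was -0.36 between the lines, against -0.02 with TMM scaling, and the directions of PFKFB4, SLC16A3, ALDOA and PC turned.

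**Figure D2:**
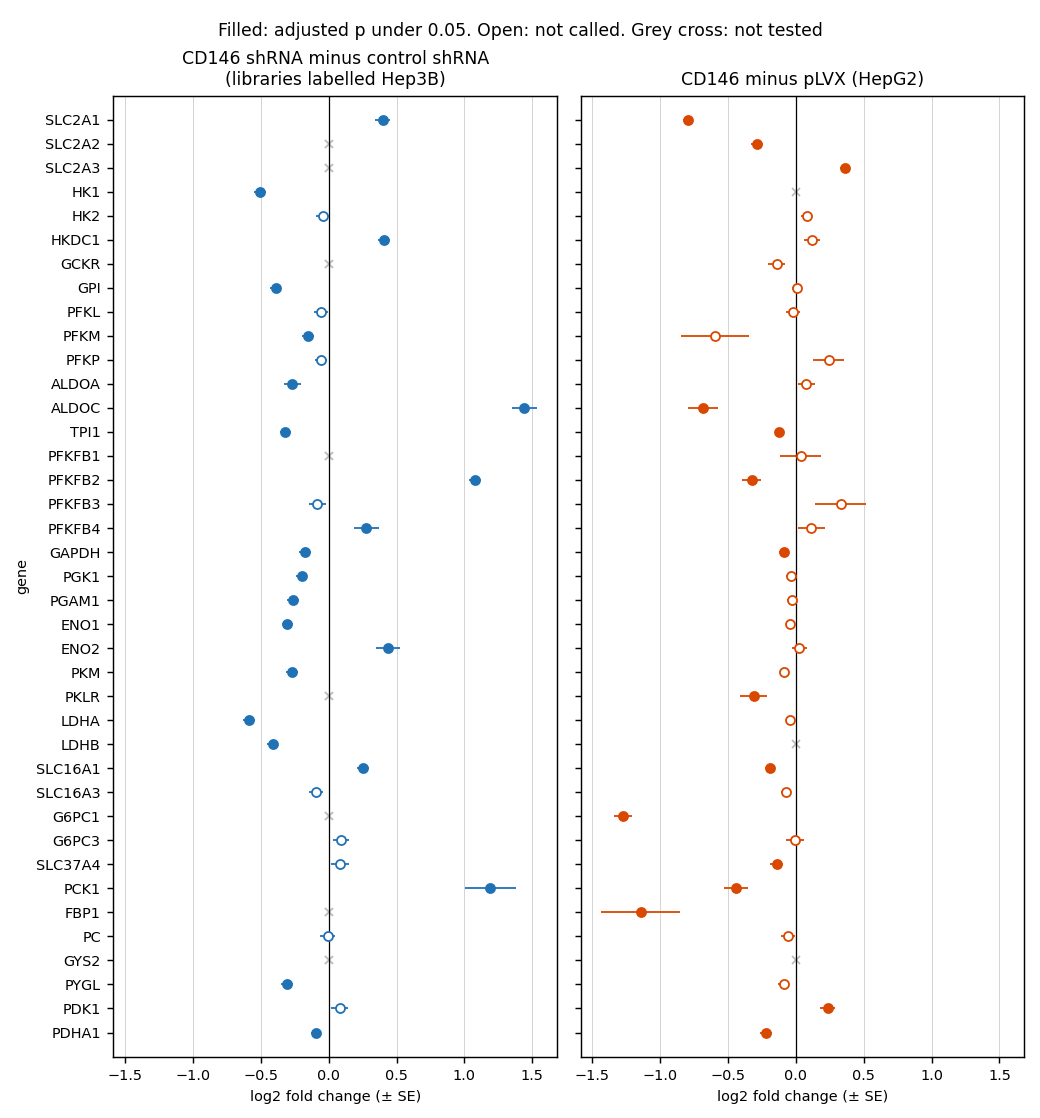
Log2 fold change with its standard error (x axis) of each of the 39 genes (y axis) in the CD146 knockdown (left) and with CD146 overexpression (right). Filled points passed an adjusted p of 0.05, open points did not, and grey crosses were not tested. Most filled points from GPI to LDHB lie left of 0 in the knockdown.

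Of the glucose transporters, SLC2A1 was present in all 12 libraries, while SLC2A2 and SLC2A3 were near or at 0 in the libraries labelled Hep3B. SLC2A1, the basal transporter GLUT1, stood at 14.9, 16.6 and 16.9 FPKM with the control shRNA and at 19.1, 21.5 and 21.6 with the CD146 shRNA. Its HepG2 levels stood at 36.9, 36.7 and 37.2 FPKM with pLVX and at 22.2, 22.4 and 22.5 with CD146. Neither pair of groups overlapped. SLC2A1 rose by 0.40 in the knockdown (SE 0.05, adjusted p = 2.73e-08) and fell by 0.79 with overexpression (SE 0.04, adjusted p = 1.87e-25).

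SLC2A3, the high-affinity transporter GLUT3, was at 0.01 to 0.08 FPKM in the libraries labelled Hep3B, with sums of 6 counts (control shRNA) and 17 counts (CD146 shRNA). In HepG2 its levels were 42.9, 41.7 and 41.8 FPKM with pLVX and 59.1, 57.1 and 54.4 with CD146, groups that did not overlap. It rose by 0.36 (SE 0.03, adjusted p = 1.60e-12), the opposite direction to SLC2A1 in the same libraries. SLC2A14 is a near-identical copy, so reads may have been split between them, and it stood at 3.25 to 3.89 FPKM in HepG2.

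SLC2A2, the liver transporter GLUT2, had no count in the control shRNA libraries and 1 count in the CD146 shRNA libraries, in replicate 3. It stood at 30.3, 35.1 and 33.9 FPKM with pLVX, at least 586-fold higher when the control shRNA group is set to the floor of 3 counts per library. With CD146 it stood at 30.4, 26.8 and 28.4 FPKM, so the FPKM of the groups overlapped narrowly. It fell by 0.29 (SE 0.05, adjusted p = 2.31e-06), a call not made with limma on FPKM.

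Of the hexokinases, HK1 was near the floor in HepG2, while HK2 and HKDC1 were present in all 12 libraries. HK1, the hexokinase of most tissues, stood at 24.9, 24.2 and 24.6 FPKM with the control shRNA and at 17.2, 16.6 and 16.7 with the CD146 shRNA. The groups did not overlap, and it fell by 0.51 (SE 0.04, adjusted p = 6.21e-13). In HepG2 it was at 0.02 to 0.05 FPKM, with 8 counts in the 3 pLVX libraries and 12 in the 3 CD146 libraries, and was not tested there.

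HKDC1, a hexokinase-domain protein encoded beside HK1, stood at 27.1, 28.5 and 27.6 FPKM with the control shRNA and at 35.7, 36.2 and 35.5 with the CD146 shRNA. It rose by 0.41 (SE 0.04, adjusted p = 3.26e-10), while its neighbour fell. In HepG2 it stood at 9.60 to 11.5 FPKM. HK2, the inducible hexokinase of muscle and tumours, stood at 15.8 to 18.3 FPKM in the libraries labelled Hep3B and at 22.4 to 26.2 in HepG2. It was called in neither perturbation, with log2 changes of -0.04 (SE 0.05) and 0.08 (SE 0.04). GCKR, which encodes a regulatory protein of liver glucose metabolism, was at 0 counts with the control shRNA and at 10.3, 10.6 and 10.99 FPKM with pLVX, at least 174-fold higher when the control group is set to the floor.

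**Figure D3:**
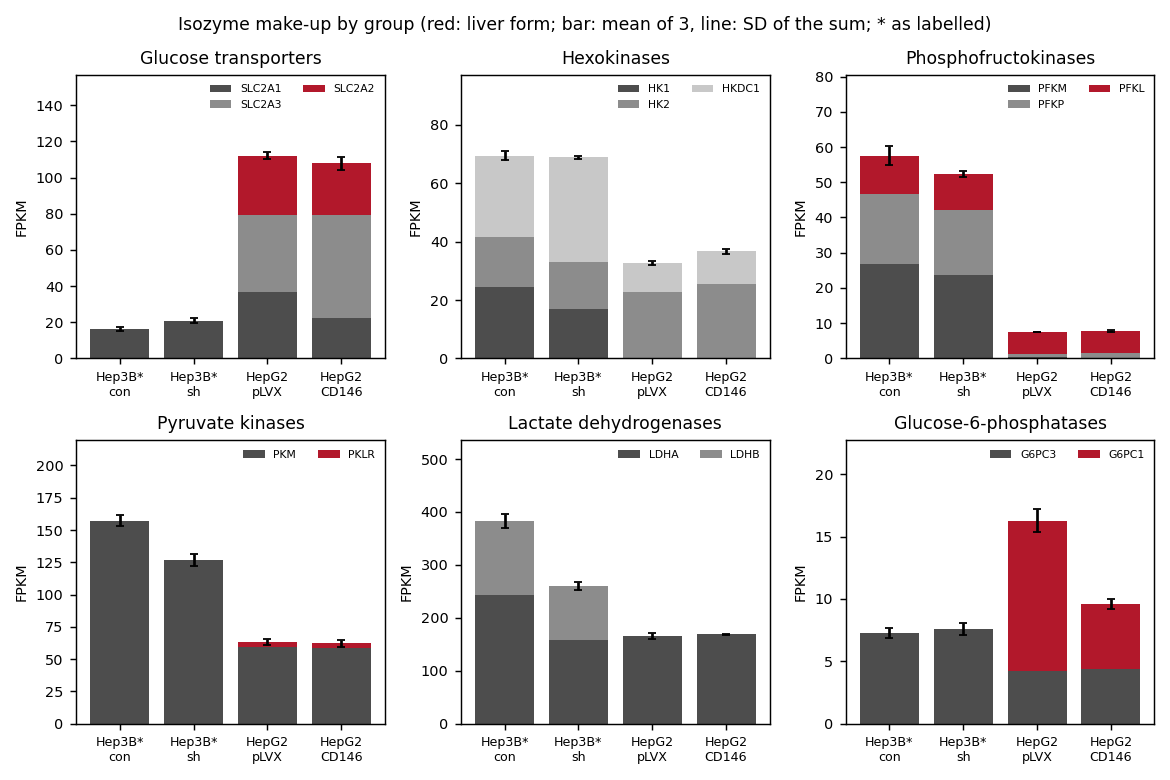
Summed level (y axis, FPKM from 0, mean of 3 libraries, line: SD of the sum) of the isozymes of 6 steps in the 4 groups (x axis, con: control shRNA, sh: CD146 shRNA, the asterisk marks the label Hep3B), with liver forms in red where a step has one. The red share is larger in HepG2 at each step with a red form: glucose transporters, phosphofructokinase, pyruvate kinase and glucose-6-phosphatase.

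Upper glycolysis changed in both directions. In the knockdown 4 of its 7 genes fell, GPI, PFKM, ALDOA and TPI1, by 0.15 to 0.39, while ALDOC rose and PFKL and PFKP were not called. Over all genes tested, 28.5% were called lower and 26.8% higher. GPI, the isomerase that makes fructose 6-phosphate, fell by 0.39 (SE 0.04, adjusted p = 2.24e-10). TPI1, triosephosphate isomerase, fell by 0.32 in the knockdown (adjusted p = 3.31e-08) and by 0.12 with overexpression (adjusted p = 0.00451), the second not called with limma on FPKM. Values of ALDOA are uncertain, because it overlaps another counted gene.

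PFKM, the muscle form of phosphofructokinase, stood at 27.98, 27.6 and 25.1 FPKM with the control shRNA and at 23.5, 23.7 and 23.5 with the CD146 shRNA. Its HepG2 levels stood at 0.23, 0.35 and 0.39 FPKM with pLVX and at 0.20, 0.25 and 0.24 with CD146. PFKP, the platelet form, was also lower in HepG2, 1.05 ± 0.10 FPKM (SD, n = 3) with pLVX against 19.8 ± 0.72 with the control shRNA. The muscle and platelet forms made up 81.0% ± 0.53 of the summed phosphofructokinase level with the control shRNA and 18.4% ± 1.04 with pLVX (SD, n = 3).

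ALDOC, an aldolase best known from brain, rose in the knockdown, where ALDOA fell. It stood at 3.81, 3.14 and 3.61 FPKM with the control shRNA and at 8.78, 9.72 and 9.65 with the CD146 shRNA. In HepG2 it stood at 5.90, 4.64 and 4.85 FPKM with pLVX and at 3.15, 3.48 and 3.36 with CD146. Neither pair of groups overlapped. It rose by 1.44 in the knockdown (SE 0.09, adjusted p = 1.40e-16) and fell by 0.69 with overexpression (SE 0.11, adjusted p = 1.85e-06).

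Fructose 2,6-bisphosphate, the activator of phosphofructokinase, is made and removed by the PFKFB enzymes. PFKFB2, the heart form, stood at 12.5, 12.6 and 13.3 FPKM with the control shRNA and at 26.2, 26.5 and 26.5 with the CD146 shRNA. With pLVX it stood at 3.05, 3.16 and 2.87 FPKM and with CD146 at 2.74, 2.53 and 2.38, again without overlap. It rose by 1.08 in the knockdown (SE 0.04, adjusted p = 2.52e-23) and fell by 0.33 with overexpression (SE 0.07, adjusted p = 3.07e-04), the second not called with limma on FPKM. PFKFB2 overlaps YOD1, so the 2 genes' reads may have been mixed or lost. PFKFB1, the liver form, was at 0.06 to 0.35 FPKM in the libraries labelled Hep3B and at 2.07 to 3.32 in HepG2. PFKFB3, the inducible form of tumours, was higher in the libraries labelled Hep3B, 6.41 ± 0.26 FPKM against 0.47 ± 0.08 with pLVX (SD, n = 3).

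**Figure D4:**
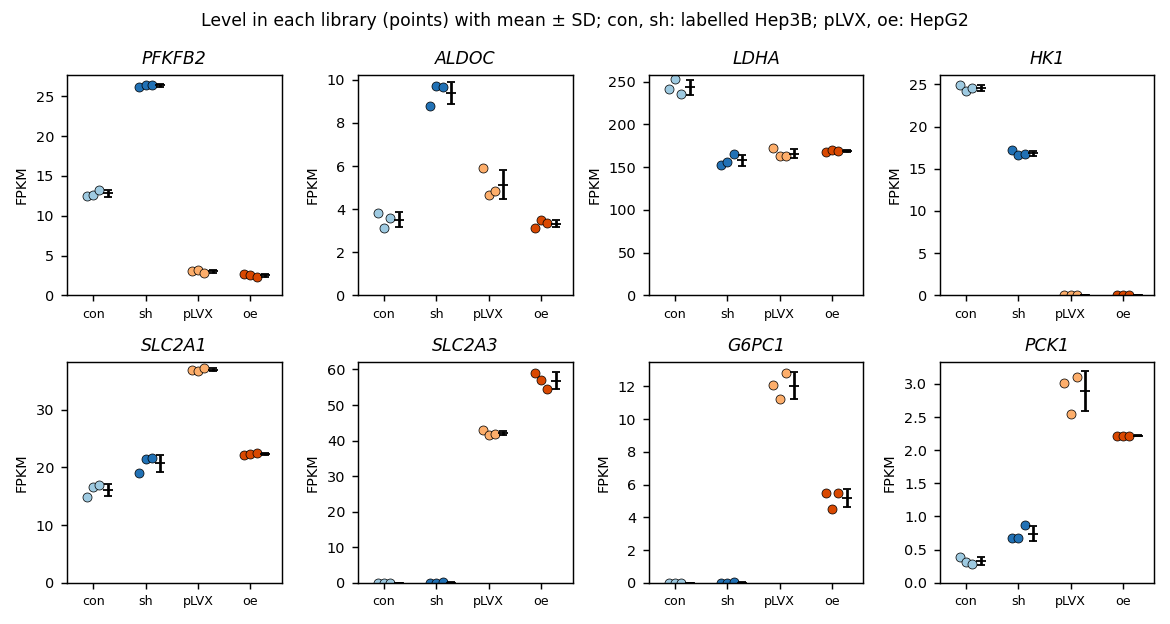
FPKM (y axis, from 0) of 8 genes in each library (points) with the mean and SD beside them, for control shRNA (con), CD146 shRNA (sh), pLVX and CD146 (oe). PFKFB2, ALDOC, SLC2A1 and PCK1 are higher with the CD146 shRNA than with its control and lower with CD146 than with pLVX.

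Of the 6 lower glycolysis genes tested in the knockdown, 5 fell and 1 rose, beside 28.5% lower and 26.8% higher over all genes tested. GAPDH, PGK1, PGAM1, ENO1 and PKM fell, by 0.17 to 0.30, and ENO2 rose by 0.44 (SE 0.09, adjusted p = 8.28e-05). PKM, the pyruvate kinase of tumours and most adult tissues, stood at 160, 159 and 152 FPKM with the control shRNA and at 122, 128 and 131 with the CD146 shRNA, and fell by 0.27 (SE 0.04, adjusted p = 6.93e-07). The 16 genes from GPI to LDHB, without the PFKFB genes, summed to 2322 ± 64.0 FPKM with the control shRNA and to 1886 ± 55.6 with the CD146 shRNA (SD, n = 3). The sums in HepG2 were 1088 ± 23.2 with pLVX and 1088 ± 33.5 with CD146. These sums carry no TMM scaling, and on deposited FPKM the median log2 change of all genes between the lines was -0.36. GAPDH alone made up 954 FPKM of the sum with the control shRNA and 416 with pLVX.

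With overexpression, 2 of the 7 lower glycolysis genes were called, both lower, beside 10.3% lower and 9.55% higher over all genes tested. GAPDH fell by 0.09 (SE 0.03, adjusted p = 0.0276), with FPKM groups that overlapped, and the call was lost without pLVX replicate 1, CD146 replicate 1 or CD146 replicate 2 (adjusted p = 0.147, 0.171 and 0.0919). PKLR, the liver and red cell pyruvate kinase, stood at 4.18, 4.07 and 4.56 FPKM with pLVX and at 3.41, 3.39 and 3.99 with CD146, and fell by 0.31 (SE 0.10, adjusted p = 0.0192). That call was also lost without pLVX replicate 3, CD146 replicate 1 or CD146 replicate 2 (adjusted p = 0.101, 0.0932 and 0.0721). In the libraries labelled Hep3B it had 3 counts (control shRNA) and 1 count (CD146 shRNA).

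Of the 31 members tested in the knockdown, LDHA had the most negative log2 change. LDHA, the form that favours lactate, stood at 241, 253 and 236 FPKM with the control shRNA and at 153, 156 and 165 with the CD146 shRNA. It fell by 0.58 (SE 0.04, adjusted p = 8.96e-15), and the groups did not overlap. Its HepG2 levels stood at 172, 163 and 163 FPKM with pLVX and at 168, 170 and 169 with CD146, groups that overlapped, with a log2 change of -0.05 (SE 0.03, adjusted p = 0.304).

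LDHB, the heart form, stood at 139, 144 and 135 FPKM with the control shRNA and at 103, 99.7 and 103 with the CD146 shRNA, and fell by 0.41 (SE 0.04, adjusted p = 2.74e-11). In HepG2 it was at 0.06 to 0.13 FPKM, with 14 counts in the 3 pLVX libraries. LDHA made up 63.6% ± 0.21 of the summed level with the control shRNA and 99.9% ± 0.01 with pLVX (SD, n = 3). SLC16A1, the lactate transporter MCT1, rose by 0.25 in the knockdown (adjusted p = 5.88e-06) and fell by 0.19 with overexpression (adjusted p = 1.20e-05), the second not called with limma on FPKM. SLC16A3, the exporter MCT4, was called in neither.

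LDHA and ALDOC moved in opposite directions in the knockdown, and their promoters are shown because both hold the core letters of the hypoxia and E-box elements known from glycolytic genes. Capitals mark ACGTG on either strand, and a CACGTG holds the motif once on each strand. The motif was found in 12 of the 34 members with a RefSeq window (35.3%) and in 18.7% of 27305 genes, over the 250 bases before the start. LDHA had 5 matches (chr11:18394313-18394562, plus strand) and ALDOC 3 (chr17:28576896-28577145, minus strand, both GRCh38.p14). The motif holds a CG, and the members' windows had a median of 20.5 CG dinucleotides against 11 over all genes, so the 2 shares are not matched for base content. A match is a description of these letters and not a binding site.
LDHA: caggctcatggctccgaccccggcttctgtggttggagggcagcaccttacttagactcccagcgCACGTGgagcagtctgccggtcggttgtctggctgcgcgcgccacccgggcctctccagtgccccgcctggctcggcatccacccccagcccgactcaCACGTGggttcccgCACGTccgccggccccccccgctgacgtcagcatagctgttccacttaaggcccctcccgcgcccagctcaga
ALDOC: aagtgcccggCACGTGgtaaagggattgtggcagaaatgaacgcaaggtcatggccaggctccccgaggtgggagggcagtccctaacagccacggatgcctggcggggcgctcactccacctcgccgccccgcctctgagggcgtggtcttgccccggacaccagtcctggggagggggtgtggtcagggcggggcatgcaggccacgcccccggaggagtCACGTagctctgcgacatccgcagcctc

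Of the 6 gluconeogenic genes tested with CD146 overexpression 4 fell and none rose, beside 10.3% lower and 9.55% higher over all genes tested. PCK2, a PEP carboxykinase outside these 6 members, rose by 0.10 (SE 0.04, adjusted p = 0.0361). Its mean level was 51.5 FPKM with pLVX and 58.2 with CD146. In the same libraries 4 of 10 hepatocyte markers fell and 2 rose, and the part of this in the result was not tested. G6PC1 stood at 12.1, 11.2 and 12.8 FPKM with pLVX and at 5.51, 4.53 and 5.5 with CD146. The groups did not overlap, and it fell by 1.28 (SE 0.07, adjusted p = 2.28e-22). The level with pLVX was at least 273-fold higher than in the control shRNA group set to the same floor. G6PC3 was not called in either perturbation, and its share of the summed glucose-6-phosphatase level was 26.0% ± 0.90 with pLVX and 46.2% ± 3.66 with CD146 (SD, n = 3).

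PCK1, the cytosolic enzyme that starts gluconeogenesis from oxaloacetate, stood at 0.39, 0.32 and 0.28 FPKM with the control shRNA and at 0.67, 0.68 and 0.87 with the CD146 shRNA. In HepG2 it stood at 3.02, 2.55 and 3.10 FPKM with pLVX and at 2.22, 2.22 and 2.21 with CD146. Neither pair overlapped, and it rose by 1.19 in the knockdown (SE 0.19, adjusted p = 1.10e-06) and fell by 0.44 with overexpression (SE 0.09, adjusted p = 8.99e-05). FBP1, fructose bisphosphatase, stood at 0.94, 0.84 and 1.38 FPKM with pLVX and at 0.52, 0.43 and 0.53 with CD146. It fell by 1.14 (SE 0.29, adjusted p = 0.00296), and without pLVX replicate 3 it was not called (log2 change -0.91, adjusted p = 0.0569). SLC37A4, the glucose 6-phosphate carrier of the same pathway, fell by 0.14 (adjusted p = 0.0370), a call lost without any 1 library except pLVX replicate 2, and PC, pyruvate carboxylase, was called in neither.

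Of the glycogen genes, PYGL, liver glycogen phosphorylase, fell by 0.31 in the knockdown (SE 0.04, adjusted p = 2.00e-07) and was not called with overexpression. GYS2, liver glycogen synthase, did not exceed 0.06 FPKM in any library and was tested nowhere. At the entry to the mitochondrion, PDHA1, a subunit of pyruvate dehydrogenase, fell by 0.22 with overexpression (SE 0.04, adjusted p = 1.73e-04), and PDK1, a kinase that inhibits that enzyme, rose by 0.23 (SE 0.05, adjusted p = 7.56e-04). In the knockdown PDHA1 fell by 0.09, and that call was lost without any 1 library except control shRNA replicate 3.

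Across 13 steps with more than 1 isozyme, the balance of chosen other forms against 1 reference form was compared library by library on FPKM. Not every isozyme of a step entered. The PFKFB step set PFKFB3 and PFKFB4 against PFKFB1. It left out PFKFB2, the largest form with the control shRNA (mean 12.8 FPKM, and 26.4 with the CD146 shRNA). The enolase step set ENO2 against ENO1 and left out ENO3 (means 13.86 and 30.55 FPKM in the same groups). Whether these steps would separate with the forms left out was not computed. The reference was the liver or main form, except for lactate dehydrogenase. There it was LDHB, the heart form, although LDHA was the larger form in all 4 groups. Groups did not overlap for 7 of 13 steps in the knockdown, 2 towards the other forms and 5 towards the reference form. Those 5 include lactate dehydrogenase, which shifted towards LDHB. With overexpression groups did not overlap for 7 steps, all towards the other forms, and between the lines for 12. An exact 2-sided permutation test of 3 against 3 cannot go below p = 0.1. Each non-overlapping step had that value, or 0.15 after Benjamini-Hochberg adjustment over 39 tests. How often balances of other genes would separate was not counted. Over all genes tested, 26.8% were called higher and 28.5% lower in the knockdown. The shares were 9.55% and 10.3% with overexpression, and 42.1% and 43.0% between the lines. The largest shift with overexpression was in glucose-6-phosphatase, from -1.48 to -0.22 on the log2 scale (SE of the difference 0.13). PEP carboxykinase moved from 3.65 to 2.35 in the knockdown and from 4.12 to 4.65 with overexpression, with PCK2 the larger form in all 4 groups.

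The effect of higher CD146 was compared between the lines directly, as the log2 change in HepG2 minus that in the libraries labelled Hep3B. Of 38 members tested 9 were higher and 13 lower, 22 in all, against 36.4% of all genes called. Line, method of perturbation and size of the MCAM change (log2 -2.25 in the knockdown, 6.37 with overexpression) cannot be told apart in this comparison. LDHA differed by -0.63 (SE 0.06, adjusted p = 9.96e-14) and PFKFB2 by 0.76 (SE 0.08, adjusted p = 8.42e-12). Of the 8 members that rose in the knockdown, 5 fell with overexpression: SLC2A1, ALDOC, PFKFB2, SLC16A1 and PCK1. Over all 4555 genes that rose in the knockdown, 8.61% fell with overexpression and 9.95% rose. Of the 14 members that fell in the knockdown, 3 also fell with overexpression and none rose. Over all 4830 genes that fell in the knockdown, 12.5% also fell and 7.23% rose. The members' counts were not tested against these shares.

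Among 79 other genes of glucose metabolism, 65 were tested in the knockdown, and 17 rose and 22 fell, beside 26.8% higher and 28.5% lower over all genes tested. PDK4, another inhibitor of pyruvate dehydrogenase, rose by 1.61 (SE 0.04, adjusted p = 1.68e-29), ENO3, muscle enolase, by 1.18, and BSG, the chaperone of the lactate transporters, by 0.84. SLC2A5, the fructose transporter, rose by 1.35, SLC2A6 by 1.05, and TXNIP, an inhibitor of glucose uptake, by 0.80. With overexpression 62 were tested, and 6 rose and 12 fell, beside 9.55% higher and 10.3% lower over all genes tested. Of the 8 pentose phosphate genes 4 fell, among them TKT, transketolase, by 0.31 (SE 0.03, adjusted p = 2.45e-10) and PGD by 0.22. MPC1, the mitochondrial pyruvate carrier, fell by 0.30, DLD by 0.24 and BSG by 0.21.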

How the data were processed

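Poly(A)-selected RNA-seq was made from 12 libraries, 4 groups of 3 taken from the titles. The authors deposited raw counts per Ensembl gene ID and FPKM values, per the file headers. The tools in the submitters' processing notes are HISAT2 2.2.1, HTSeq 0.6.1 and cutadapt 1.9.1, with no order given. The genome build, annotation and strand setting are not given in the sources used here, so overlapping genes and near-identical copies are uncertain. Within a gene the deposited FPKM followed the counts over the library total to within 0.126% (99th percentile), so they carry no TMM scaling. Symbols were found for 61757 of 61806 IDs.

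The members and all gene lists were chosen with earlier results of these data known. Counts were tested with edgeR 4.0.16 (quasi-likelihood, TMM, filterByExpr, 2-sided, Benjamini-Hochberg over all genes tested), each perturbation within its own line and the difference between lines over all 4 groups. Alternatives were DESeq2 1.42.0, no filter, limma 3.58.1 on log2(FPKM + 0.1), a replicate block, a fit of all 12 libraries and leaving out each library. Isozyme balances used a pseudocount of 0.1 FPKM. The fits were tested on simulated data. Replicates of a group differed by more than sampling noise. Members were named in full where called at least 1.5-fold in a perturbation or 4-fold between lines, or where an isozyme pair turned on them, and of the other genes up to 6 per perturbation with the smallest adjusted p, non-overlapping groups and at least 5 CPM. Some results that this rule covers are not reported here. The restriction of the difference between lines to genes tested in each line alone was added after its results had been seen, and is given only as an alternative.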

Additional observations from a re-analysis of the deposited data

Results flagged for a closer look

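For 22 members the log2 effect of higher CD146 differed between HepG2 and the libraries labelled Hep3B, by edgeR's quasi-likelihood test of the difference itself. Over all genes tested, 36.4% were called. SLC2A1, ALDOC, PFKFB2 and PCK1 were lower with higher CD146 in both lines, so their differences are of size. TPI1, GAPDH and PDHA1 were called lower in both perturbations, so their effects of higher CD146 had opposite signs. The difference, HepG2 minus labelled Hep3B, was positive for SLC2A3 1.77, PFKFB1 1.37, ALDOC 0.76, PFKFB2 0.76, PCK1 0.75, HKDC1 0.53, ENO2 0.47, PFKFB4 0.39 and PDK1 0.32. It was negative for PFKM -0.75, LDHA -0.63, TPI1 -0.44, SLC2A1 -0.39, PYGL -0.39, GPI -0.38, PKM -0.35, ENO1 -0.35, PDHA1 -0.31, PGAM1 -0.29, GAPDH -0.26, PGK1 -0.23 and SLC16A3 -0.17. SLC2A3 and PFKFB1 were under 0.4 FPKM in all libraries labelled Hep3B and PFKM was under 0.4 FPKM in HepG2, so their values rest on few counts in 1 line. The call was lost for SLC2A3 without control shRNA replicate 2 or CD146 shRNA replicate 3, and for PFKM without pLVX replicate 3. PFKFB1 lost it without control shRNA replicate 1 or 3, CD146 shRNA replicate 2, pLVX replicate 2 or 3, or CD146 replicate 1. PFKFB4 lost it without CD146 shRNA replicate 3, pLVX replicate 2, or CD146 replicate 1 or 3. SLC16A3 lost it without control shRNA replicate 2 or 3, CD146 shRNA replicate 1, pLVX replicate 2 or 3, or CD146 replicate 2 or 3. Line, medium, method of perturbation and size of the MCAM change (log2 -2.25 in the knockdown, 6.37 with overexpression) cannot be told apart here.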

How the results depend on the processing

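The counts of called members stayed within 1.5 times their main value under DESeq2, without the filter, in the fit of all 12 libraries and with the replicate block. Leaving out each library in turn gave 7 to 10 higher and 13 to 14 lower in the knockdown, 2 higher and 10 to 14 lower with overexpression, 14 to 16 higher and 19 to 20 lower between lines, and 7 to 9 and 11 to 13 for the difference between lines. With limma on FPKM, overexpression gave 4 higher (main 2) and 5 lower (main 13). The same fit turned the direction between lines of PFKFB4 (-0.041), SLC16A3 (-0.35), ALDOA (-0.26) and PC (-0.22), and of the difference for G6PC1 (-1.12). In that fit the median log2 change of all genes was 0.07 with overexpression and -0.36 between lines, and the cause of these changes was not tested. A pseudocount of 0.01 FPKM turned the isozyme balance of the glucose transporters in the knockdown (-0.17) and of glycogen synthase between lines (0.0651), where the liver form was at or near 0. With that pseudocount 13 others of the 39 balances moved by more than the combined SD of their groups, and 13 did so with a pseudocount of 1 FPKM. The difference between lines kept to genes tested in each line alone, chosen after seeing the data, gave 7 higher and 13 lower of 29 members, against 46.7% of genes called. Replicate numbers did not pair the libraries (correlations of same-numbered deviations between -0.053 and 0.127), and the replicate block gave 8 higher and 15 lower in the knockdown and 2 and 13 with overexpression. Genes near the floor of 3 counts are limited by depth.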
